A study of Mus musculus with 13 samples.

Results

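The frontal cortex of 5XFAD mice aged 11 months was compared with that of wild-type mice of the same age, in RNA sequencing libraries that count reads per gene. The libraries were chosen by the genotype and age in their titles: 3 of 5XFAD and 3 of wild type at 11 months, 6 of the 13 libraries of the series. The labels give the wild-type strain as B6SJLF1/J and the strain of the transgenic mice only as 5XFAD, and they name no treatment. As background, 5XFAD mice carry transgenes that include human amyloid precursor protein (APP) with mutations of familial Alzheimer's disease, driven by the mouse Thy1 promoter, which is active in neurons. Production of the transgene products therefore starts from neurons, and the model stands for amyloid deposition rather than for the whole of the human disease. The other 7 libraries, from the same genotypes at 6 months, entered the fit to share its estimate of spread, and served 1 test of whether the genotype difference changed with age. The labels do not state that each library came from its own animal, so each p-value speaks of spread among libraries, which may be technical.

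Amyloid-beta released by cleavage of APP aggregates into plaques, and microglia, the resident macrophages of the brain, gather around them. The receptor TREM2 on microglia binds lipids and lipoproteins and signals through its adaptor TYROBP, and plaque-associated microglia change from a resting program to one of phagocytosis, lipid handling and lysosomal digestion. Astrocytes near plaques enlarge and increase intermediate filament proteins, and neurons around plaques can lose synapses and alter their activity.

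The 6 libraries held between 23618289 and 26615772 counts in genes, and mitochondrial genes took 7.89% to 11.43% of them. Sexes were mixed in both groups as read from Xist and Y-linked genes: wild-type replicate 1 and 5XFAD replicates 1 and 3 were female, and the other 3 were male. Wild-type replicate 3 stood apart. Ppp1r1b, which encodes the dopamine signalling protein DARPP-32 and is abundant in the striatum, was at 323, 194 and 1263 TPM in wild type and 398, 431 and 184 TPM in 5XFAD. Adora2a, an adenosine receptor of striatal projection neurons, was at 17.6, 5.5 and 117 TPM in wild type and 26.1, 29.04 and 6.26 TPM in 5XFAD. Slc17a7, the vesicular glutamate transporter of cortical excitatory neurons, was at 762, 697 and 356 TPM in wild type and 693, 604 and 662 TPM in 5XFAD. In both striatal genes wild-type replicate 3 was the highest of the 6 libraries, and in the cortical gene it was the lowest. The 22 striatal genes summed to 1067, 529.8 and 4592 TPM in wild type and 1144, 1235 and 513 TPM in 5XFAD (TPM, a unit scaled for transcript length and for library size). Counts below are therefore also given without that library where it moved them by over 1.5 times or ended a call.

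**Figure D1:**
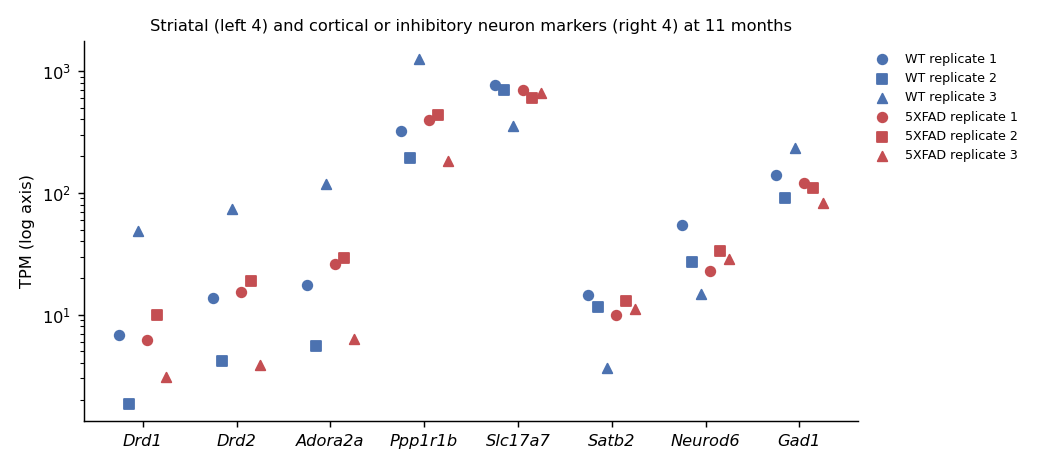
TPM on a log axis of markers of striatum, cortical excitatory neurons and other cells in the 6 libraries, 1 point per library. Wild-type replicate 3 was above the other 5 libraries for Drd1, Drd2, Adora2a and Ppp1r1b and below them for Slc17a7.

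The mouse Thy1 gene was read first as a check of the labels, since the transgenes are built on the mouse Thy1 cassette. Thy1 was at 638, 549.7 and 543 CPM in wild type and 3250, 2155 and 3056 CPM in 5XFAD (CPM, a gene's counts scaled to a common library size). The 3 5XFAD libraries were all above the 3 wild-type ones, and Thy1 rose by 2.29 ± 0.15 on the log2 scale (difference of 5XFAD minus wild type ± SE, edgeR quasi-likelihood test, adjusted p = 1.24e-06). The counts on the mouse App gene were 1306, 1085 and 1259 CPM in wild type and 1268, 1435 and 1169 CPM in 5XFAD, and the groups overlapped (adjusted p = 0.764). The human transgenes are not listed by name in the mouse annotation, so the mouse genes do not measure them. Among 19 tested genes of APP processing and the secretases, 1 was called, Itm2b, which encodes an integral membrane protein that binds APP. Of all tested genes 4.31% were called in either direction. Itm2b was at 581, 510.2 and 568 CPM in wild type and 739.8, 706 and 798 CPM in 5XFAD, without overlap, and rose by 0.44 ± 0.08 (edgeR adjusted p = 0.00505), a call that was lost with the 11-month libraries alone and on both log2 TPM scales.

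At an adjusted p below 0.05, 753 of 17483 tested genes (4.31%) differed between the genotypes at 11 months. Of these, 665 were higher in 5XFAD (3.80% of genes tested) and 88 were lower (0.503%). The higher genes had a median log2 difference of 1.28, and 426 of them rose at least 2-fold, 176 at least 4-fold and 70 at least 8-fold. The lower genes had a median of -0.51, and 14 of them fell at least 2-fold. Expression in wild type averaged below 1 CPM for 121 of the higher genes. The median over all tested genes was -0.03. The share of calls that were higher was 88.3% here and 60.5% when log2(TPM + 1) was tested with limma, a scale on which the median of all genes lay at -0.12. Leaving out 5XFAD replicate 3 left 448 higher and 15 lower genes, and leaving out 5XFAD replicate 1 left 572 and 29.

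**Figure D2:**
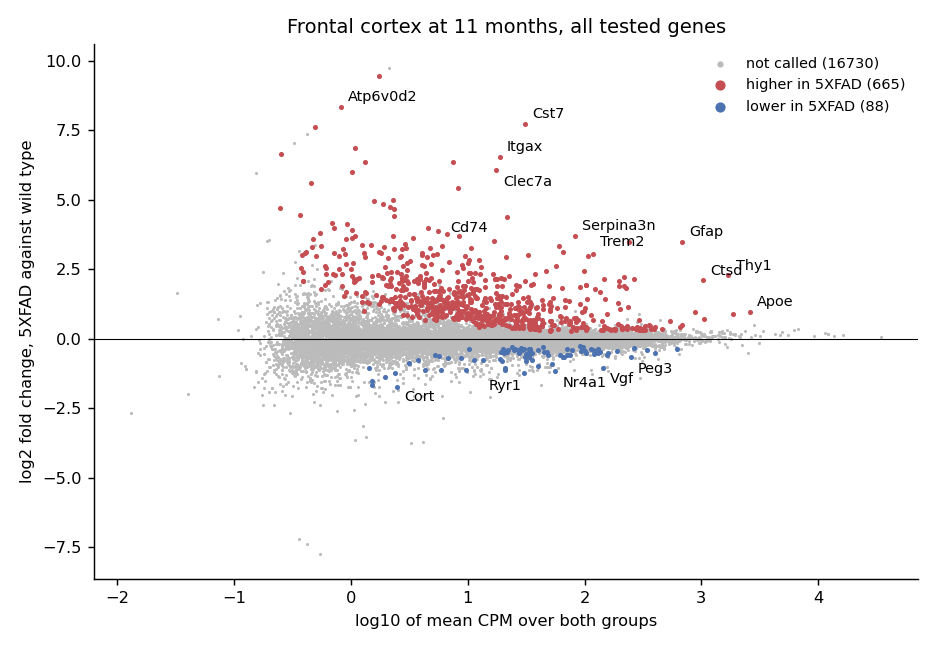
Log2 difference, 5XFAD minus wild type at 11 months, against the log10 of the mean CPM of both groups for the 17483 tested genes, with called genes coloured. The 665 higher genes reach far larger differences than the 88 lower ones.

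**Figure D3:**
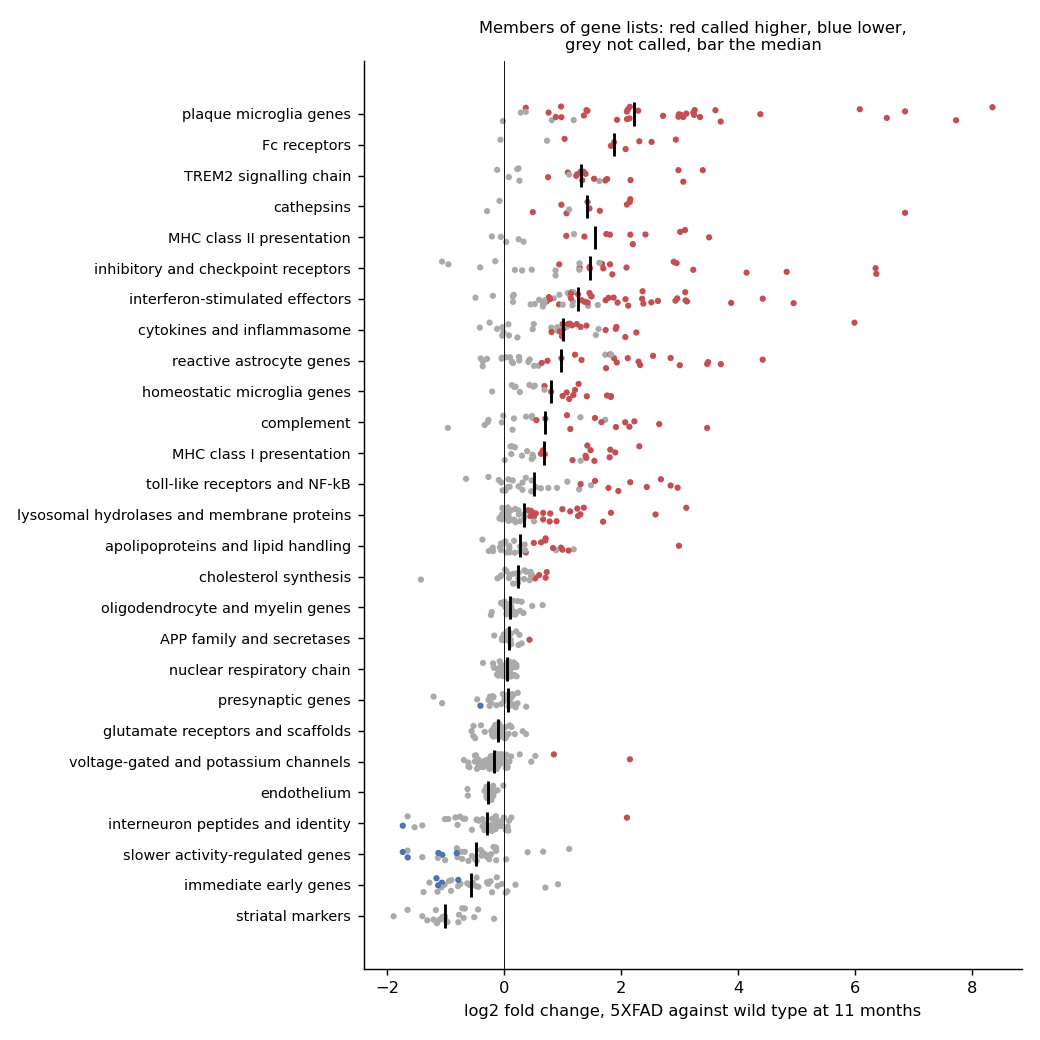
Each gene list as a row, with the log2 difference of each tested member as a point, called members coloured, and the list's median as a bar. Microglial, lysosomal and immune lists lie to the right of 0, and the immediate early and slower activity-dependent lists lie to the left.

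Genes of plaque-associated microglia had the highest median of the lists, a log2 difference of 2.22. Of 38 tested, 33 rose and none fell. Cst7, which encodes cystatin F, an inhibitor of cysteine cathepsins (GRCm38 chr2:150570415-150578944), was at 0.199, 0.404 and 0.2498 CPM in wild type and 53.97, 54.8 and 75.2 CPM in 5XFAD. Itgax, the integrin CD11c, was at 0.478, 0.404 and 0.291 CPM in wild type and 36.05, 27.2 and 47.9 CPM in 5XFAD. Neither gene reached 1 CPM in any wild-type library, and every 5XFAD library was far above the wild-type range. Cst7 rose by 7.73 ± 0.34 (edgeR adjusted p = 9.39e-08) and Itgax by 6.54 ± 0.35 (adjusted p = 3.48e-07). Clec7a, the beta-glucan receptor Dectin-1, annotated as a polymorphic pseudogene in the gene models, was at 0.637, 0.363 and 0.4997 CPM in wild type and 33.2, 22.9 and 46.7 CPM in 5XFAD, again without overlap. Gpnmb, a transmembrane glycoprotein of lipid-laden phagocytes, was at 1.195, 2.46 and 2.25 CPM in wild type and 40.2, 30.4 and 52.8 CPM in 5XFAD, rising by 4.38 ± 0.38. Lyz2, lysozyme, was at 9.04, 10.8 and 12.7 CPM in wild type and 100.5, 88.5 and 143 CPM in 5XFAD, rising by 3.35 ± 0.18. Igf1, insulin-like growth factor 1, rose from 5.32 ± 1.29 to 22.9 ± 5.12 CPM (mean ± SD, n = 3 libraries per group), or by 2.10 ± 0.21. In whole tissue, more cells of a type and more RNA per cell cannot be told apart, for these genes and for the others of any cell type given here.

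Low genes of wild-type cortex rose alongside them. Atp6v0d2, a subunit of the vacuolar proton pump found in osteoclasts and macrophages, had no count in any wild-type library and was at 1.38, 1.13 and 2.40 CPM in 5XFAD. This was at least 40.3-fold higher, taking 3 counts over the wild-type group as the limit that a count of 0 allows (edgeR adjusted p = 0.00109). Ctse, cathepsin E, an aspartic protease of endosomes, was at 0, 0 and 0.0416 CPM in wild type and 2.02, 2.02 and 2.402 CPM in 5XFAD. Hcar2, a receptor for hydroxycarboxylic acids such as beta-hydroxybutyrate and niacin, was at 0.119, 0.242 and 0.0833 CPM in wild type and 3.601, 3.79 and 5.04 CPM in 5XFAD, rising by 4.75 ± 0.41. Mmp12, the macrophage elastase, was at 0.0398, 0 and 0 CPM in wild type and 0.647, 0.444 and 0.349 CPM in 5XFAD. Every 5XFAD library was above every wild-type one for these 4 genes, although Mmp12 stayed below 1 CPM throughout. Asb10, a member of the ankyrin repeat and SOCS box family, was at 0.0398, 0.242 and 0.125 CPM in wild type and 4.25, 3.75 and 5.38 CPM in 5XFAD, rising by 4.99 ± 0.45 (edgeR adjusted p = 1.02e-05).

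The chain from TREM2 to its intracellular effectors rose at most of its steps, 15 of 22 tested genes with a median of 1.32. Trem2 itself was at 18.9, 32.99 and 23.7 CPM in wild type and 214, 148 and 271 CPM in 5XFAD, and Tyrobp, its signalling adaptor, at 20.04, 29.4 and 22.9 CPM in wild type and 192, 148 and 231 CPM in 5XFAD. For both genes the lowest 5XFAD library, replicate 2, was more than 4 times the highest wild-type one. Trem2 rose by 3.06 ± 0.25 (edgeR adjusted p = 9.89e-06) and Tyrobp by 2.98 ± 0.17 (adjusted p = 4.64e-07). Fcer1g, the other common adaptor with an activation motif, was at 11.1, 14.4 and 12.3 CPM in wild type and 60.4, 50.9 and 76.4 CPM in 5XFAD, rising by 2.31 ± 0.14. Downstream, Plcg2, the phospholipase that signals below TREM2, rose from 5.09 ± 0.898 to 12 ± 2.73 CPM and Vav1, a guanine exchange factor for Rac, from 4.46 ± 1.45 to 12.9 ± 1.4 CPM. Ptpn6, the phosphatase SHP-1 that opposes such signals, rose from 6.297 ± 1.69 to 28.2 ± 6.43 CPM. Syk, the kinase recruited by the adaptors, was at 5.58, 6.54 and 4.75 CPM in wild type and 9.14, 8.14 and 11.2 CPM in 5XFAD, a rise of 0.75 ± 0.17 (edgeR adjusted p = 0.0204) that was lost without wild-type replicate 1, wild-type replicate 3 or 5XFAD replicate 3. The Syk call was also lost with the 11-month libraries alone and on both log2 TPM scales.

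**Figure D4:**
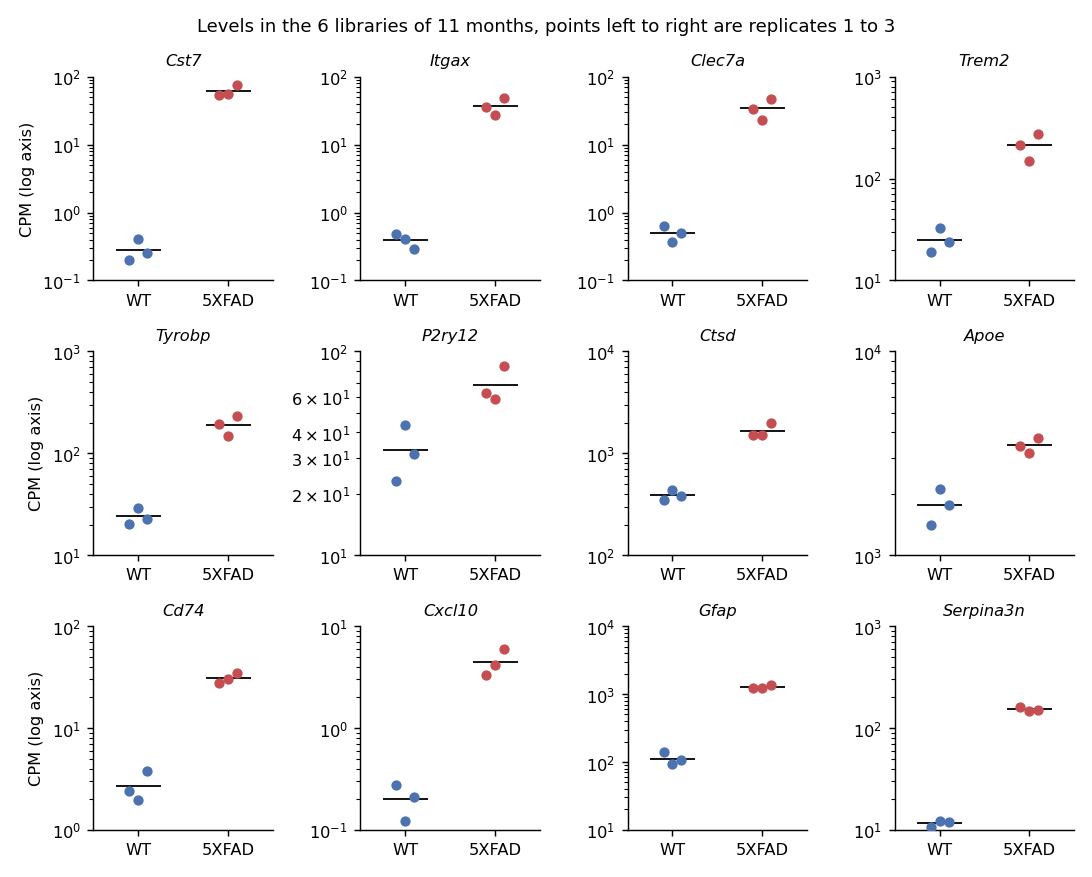
CPM on a log axis in each of the 3 wild-type and 3 5XFAD libraries for 12 genes that rose, with the group mean as a line. The groups do not overlap for any of the 12, and Cst7, Itgax and Clec7a show the widest separation.

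Homeostatic microglial genes rose in 12 of 21 tested cases (7 with the 11-month libraries alone) and fell in none, with a median of 0.81. P2ry12, the purinergic receptor by which resting microglia sense ATP, was at 23.2, 43.4 and 31.4 CPM in wild type and 62.7, 58.1 and 85.2 CPM in 5XFAD. Cx3cr1, the fractalkine receptor, was at 38.8, 81.05 and 53.1 CPM in wild type and 138, 135 and 188 CPM in 5XFAD. Neither gene had an overlap between the groups, and wild-type replicate 2 was the highest wild-type library for both. P2ry12 rose by 1.07 ± 0.20 (edgeR adjusted p = 0.00661) and Cx3cr1 by 1.42 ± 0.21 (adjusted p = 0.00111), and both calls were lost with the 11-month libraries alone. Csf1r, the receptor for the survival factor CSF1, rose from 114 ± 30.8 to 276 ± 60.8 CPM. Tmem119, a membrane protein used to mark resident microglia, was at 23.3, 43.4 and 32.3 CPM in wild type and 38.2, 40.04 and 55.5 CPM in 5XFAD, and its groups overlapped (adjusted p = 0.295). The ligand Cx3cl1, made by neurons, went the other way, at 724, 663 and 695 CPM in wild type and 507, 609 and 513 CPM in 5XFAD, a fall of 0.35 on the log2 scale (edgeR adjusted p = 0.0357). The Cx3cl1 call was lost without wild-type replicate 1 or 3, and without 5XFAD replicate 1 or 3. It was also lost with the 11-month libraries alone, with no filter on low counts, with sex as a covariate and with a gene length trend removed.

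Among transcription factors of myeloid cells, 9 of 26 tested rose and the median was 0.42. Spi1, which encodes PU.1, the master regulator of the lineage, was at 3.905, 6.502 and 5.08 CPM in wild type and 15.3, 13.8 and 21.5 CPM in 5XFAD, rising by 1.71 ± 0.22 (edgeR adjusted p = 0.000227). Irf8, its partner in microglia, was at 5.54, 8.56 and 6.62 CPM in wild type and 30.5, 25.2 and 39.1 CPM in 5XFAD, rising by 2.19 ± 0.18. The groups were separate for both genes, and 5XFAD replicate 3 was the highest library. Runx1 rose from 1.21 ± 0.475 to 4.93 ± 0.295 CPM and Cebpa from 10.96 ± 1.96 to 27.7 ± 2.89 CPM. Mitf, a factor of the lysosomal gene program, was at 4.98, 5.01 and 6.66 CPM in wild type and 6.27, 7.903 and 7.79 CPM in 5XFAD, with overlapping groups (adjusted p = 0.399).

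Of 13 tested cathepsins, the proteases of lysosomes and endosomes, 10 rose and none fell, with a median of 1.43. Ctsd, cathepsin D, the main aspartic protease of lysosomes (GRCm38 chr7:142375911-142388038), was at 347, 436 and 385 CPM in wild type and 1516, 1524 and 1970 CPM in 5XFAD. Ctsz, cathepsin Z, was at 56.2, 56.1 and 50.6 CPM in wild type and 240, 192 and 291 CPM in 5XFAD, and Ctss, cathepsin S, which trims the class II invariant chain, at 67.5, 121 and 104 CPM in wild type and 407, 360.4 and 540.3 CPM in 5XFAD. All 3 genes were separate between the groups, and 5XFAD replicate 3 was the highest library for each. Ctsd rose by 2.10 ± 0.12 (edgeR adjusted p = 4.31e-07), Ctsz by 2.15 ± 0.14 and Ctss by 2.16 ± 0.19. Ctsb, cathepsin B, rose from 593 ± 36.3 to 1171 ± 136 CPM, or by 0.98 ± 0.09, and Lgmn, the asparaginyl endopeptidase that matures other cathepsins, from 108 ± 3.32 to 201 ± 24.1 CPM. Cst3, cystatin C, a secreted inhibitor of cathepsins, rose from 1303 ± 218 to 2444 ± 207 CPM, or by 0.91 ± 0.13.

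Of 46 other lysosomal hydrolases and membrane proteins tested, 21 rose and none fell, with a median of 0.34. Grn, progranulin, was at 61.4, 71.6 and 60.3 CPM in wild type and 213, 148 and 264 CPM in 5XFAD, rising by 1.69 ± 0.18. Cd68, a lysosomal membrane protein of phagocytes, was at 11.3, 13.4 and 15.9 CPM in wild type and 123, 83.8 and 145 CPM in 5XFAD, rising by 3.12 ± 0.21. Neither overlapped between the groups, and 5XFAD replicate 2 was the lowest 5XFAD library for both. Npc2, which hands cholesterol out of the lysosome, rose from 66.4 ± 3.35 to 133 ± 16.3 CPM, and Lamp1, a membrane protein of lysosomes in all cells, from 305 ± 10 to 418 ± 38.1 CPM. The proton pump that acidifies lysosomes had 2 of 22 tested subunits called, with a median of 0.06. These were Atp6v0d2 and Tcirg1, the latter a subunit of macrophages and osteoclasts, at 17.4, 22.7 and 21.5 CPM in wild type and 41.4, 29.5 and 47.2 CPM in 5XFAD (edgeR adjusted p = 0.0283). The Tcirg1 call needed wild-type replicates 1 and 3 as well as 5XFAD replicates 1 and 3. It was also lost with sex as a covariate and on both log2 TPM scales. The ubiquitous subunit Atp6v0a1 was at 468, 439.6 and 446 CPM in wild type and 480.2, 436 and 484 CPM in 5XFAD, with overlapping groups.

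In the list for lipid transport and lipoprotein metabolism, 10 of 31 tested genes rose, and the median was 0.28. That count was 6 without 5XFAD replicate 3 or on either log2 TPM scale, and 3 with the 11-month libraries alone. Apoe, the main lipoprotein of the brain and a common risk gene of Alzheimer's disease (GRCm38 chr7:19696109-19699188), was at 1413, 2102 and 1758 CPM in wild type and 3444, 3165 and 3754 CPM in 5XFAD. Its groups were separate, and it rose by 0.97 ± 0.15 (edgeR adjusted p = 0.00142). Ch25h, which makes 25-hydroxycholesterol, was at 0.319, 0.888 and 0.583 CPM in wild type and 4.61, 5.48 and 4.22 CPM in 5XFAD, rising by 2.99 ± 0.48. Lpl, lipoprotein lipase, was at 9.88, 12.8 and 44.2 CPM in wild type and 54.9, 43.9 and 53.6 CPM in 5XFAD. The wild-type library with striatal markers, replicate 3, overlapped the 5XFAD libraries for Lpl, and the other wild-type libraries did not. The Lpl difference was 1.19 ± 0.46 (adjusted p = 0.229) with all libraries and 2.17 (edgeR adjusted p = 0.0002) without that library. Plin2, which coats lipid droplets, was at 4.46, 6.66 and 5.87 CPM in wild type and 11.2, 8.14 and 11 CPM in 5XFAD (edgeR adjusted p = 0.0156). The Plin2 call was lost without wild-type replicate 1 or 5XFAD replicate 1 or 3, and with the 11-month libraries alone. Of 26 tested genes of cholesterol synthesis and its control, 4 rose (Stard4, Fdps and Nsdhl among them), with a median of 0.24. No member of that list was called without wild-type replicate 3, without 5XFAD replicate 1, with the 11-month libraries alone or on either log2 TPM scale. With DESeq2 7 were called, and 2 were with sex as a covariate or without wild-type replicate 2 or 5XFAD replicate 3. None of 17 tested genes of fatty acid synthesis was called.

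Chemokines showed 5 rises among 16 tested genes and a median of 0.64. Ccl3 and Ccl4, the macrophage inflammatory proteins, were the largest, and since they have close copies in the genome their reads may be shared. Ccl3 was at 0.438, 0.242 and 0.416 CPM in wild type and 20.7, 10.4 and 17.1 CPM in 5XFAD, rising by 5.44 ± 0.45 (edgeR adjusted p = 8.59e-06). Ccl6 was at 1.08, 1.21 and 1.33 CPM in wild type and 16.8, 12.1 and 18.4 CPM in 5XFAD, rising by 3.70 ± 0.28, and Cxcl16, a membrane-bound chemokine and scavenger of oxidised lipid, rose from 1.11 ± 0.157 to 6.998 ± 0.683 CPM. The groups of these 3 genes were separate. Of 7 tested chemokine receptors 3 rose (Cx3cr1, Cxcr4 and Ccr2), with a median of 1.36, and 1 was called when any library but wild-type replicate 2 was left out, with the 11-month libraries alone or with sex as a covariate.

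Of 36 tested genes of cytokines, their receptors and the inflammasome, 18 rose, with a median of 1.0. Csf1, the growth factor of microglia, was at 25.9, 27.1 and 17.9 CPM in wild type and 66.2, 52.7 and 69.5 CPM in 5XFAD, rising by 1.41 ± 0.15 (edgeR adjusted p = 5.42e-05). Pycard, the inflammasome adaptor ASC, was at 3.03, 4.32 and 4.54 CPM in wild type and 14.7, 11.1 and 18.9 CPM in 5XFAD, rising by 1.91 ± 0.23. Neither overlapped between groups. Tgfb1, transforming growth factor beta 1, rose from 5.24 ± 1.46 to 13 ± 2.45 CPM, and its receptor Tgfbr2 from 14.4 ± 2.45 to 54.6 ± 9.06 CPM. Interleukin 1 genes had few counts. Il1b was at 0.239, 0.0404 and 0.0833 CPM in wild type and 0.202, 0.444 and 0.465 CPM in 5XFAD, and Il1a at 0.797, 1.09 and 1.04 CPM in wild type and 2.104, 0.968 and 2.44 CPM in 5XFAD. Their groups overlapped and neither was called (adjusted p = 0.264 and 0.258), while Tnf and Il6 had too few counts to be tested.

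Immune checkpoint and inhibitory receptor genes rose in 16 of 28 tested cases, with a median of 1.46. Lilrb4a, an inhibitory immunoglobulin-like receptor with a close paralog, was at 0.199, 0.121 and 0.208 CPM in wild type and 18.6, 11.4 and 14.7 CPM in 5XFAD, rising by 6.36 ± 0.42 (edgeR adjusted p = 1.21e-06). Lag3, known from exhausted T cells and also present in microglia and neurons, was at 8.05, 15.02 and 12.5 CPM in wild type and 50.4, 38.2 and 63.2 CPM in 5XFAD, rising by 2.09 ± 0.22. Pdcd1, which encodes PD-1, was at 0.0398, 0 and 0.0416 CPM in wild type and 2.75, 1.65 and 3.45 CPM in 5XFAD, and its ligand gene Cd274, PD-L1, at 1.87, 2.504 and 1.25 CPM in wild type and 6.23, 5.28 and 6.78 CPM in 5XFAD. No wild-type library reached the lowest 5XFAD library in these 4 genes. Cd22, an inhibitory lectin that binds sialic acid, rose from 0.527 ± 0.131 to 5.01 ± 2.14 CPM, Siglecf from 0.487 ± 0.138 to 3.67 ± 0.48 CPM and Cd86, the costimulatory ligand, from 2.62 ± 0.767 to 9.21 ± 2.17 CPM. Of T cell genes, Cd3e had 0, 1 and 2 counts in wild type and 13, 8 and 4 counts in 5XFAD, and Cd8a had 0, 1 and 1 counts in wild type and 11, 13 and 5 counts in 5XFAD, too few to be tested. Every 5XFAD library was above every wild-type one for both. These 2 genes were named after their values were seen, and the 9 T cell genes with enough counts to be tested had a median of -0.03.

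Antigen presentation rose in both of its classes. In class II, 10 of 16 tested genes rose, with a median of 1.56. Cd74, the invariant chain, was at 2.39, 1.98 and 3.79 CPM in wild type and 27.6, 30.2 and 34.9 CPM in 5XFAD, rising by 3.51 ± 0.30 (edgeR adjusted p = 9.39e-06). H2-Ab1, a class II beta chain, was at 0.757, 0.485 and 1.29 CPM in wild type and 6.39, 6.73 and 8.56 CPM in 5XFAD, and H2-Aa, the matching alpha chain, at 0.916, 0.888 and 1.499 CPM in wild type and 7.49, 8.02 and 11.2 CPM in 5XFAD. The 3 genes were separate between groups, at levels in wild type of a few CPM or less. In class I, 13 of 24 tested genes rose, with a median of 0.68. B2m, the common light chain, was at 89.6, 84.3 and 76.5 CPM in wild type and 308, 228 and 399 CPM in 5XFAD, rising by 1.90 ± 0.17, and H2-D1, a classical heavy chain with close paralogs, at 56.6, 59 and 48.2 CPM in wild type and 181, 153 and 239 CPM in 5XFAD, rising by 1.81 ± 0.17. Tap1, a chain of the peptide transporter, rose from 3.39 ± 0.665 to 8.91 ± 1.82 CPM, Psmb8, an immunoproteasome subunit, from 4.69 ± 0.871 to 16.5 ± 3 CPM, and Nlrc5, the transactivator of class I genes, from 0.893 ± 0.35 to 4.46 ± 1.36 CPM. In the class I genes named here, 5XFAD replicate 3 was the highest library and replicate 2 the lowest of the 3 5XFAD libraries.

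Interferon-stimulated effector genes rose in 32 of 55 tested cases, with a median of 1.27. That count was 21 without wild-type replicate 3, and 20 without 5XFAD replicate 3 or with the 11-month libraries alone. Ifit3, which binds viral RNA complexes and has a close copy, was at 13.03, 10.3 and 8.74 CPM in wild type and 41.1, 26.4 and 55.98 CPM in 5XFAD, rising by 1.94 ± 0.28 (edgeR adjusted p = 0.00111). Ifit1 was at 2.15, 2.54 and 1.79 CPM in wild type and 8.62, 4.96 and 13.8 CPM in 5XFAD, rising by 2.08 ± 0.42. Cxcl10, a chemokine induced by interferons, was at 0.279, 0.121 and 0.208 CPM in wild type and 3.32, 4.11 and 5.93 CPM in 5XFAD, rising by 4.42 ± 0.58. The groups were separate for each, and 5XFAD replicate 3 was the highest of all libraries. Zbp1, a sensor of Z-form nucleic acid, rose from 0.1498 ± 0.065 to 2.02 ± 0.71 CPM, Oas1a from 0.6095 ± 0.146 to 4.68 ± 2.27 CPM and Irgm1, an interferon-inducible GTPase, from 8.22 ± 2.11 to 22.6 ± 2.07 CPM. Among receptors and signalling proteins of the interferon pathway, 10 of 26 tested genes rose, with a median of 0.63. Without wild-type replicate 1 or 3, with the 11-month libraries alone or on either log2 TPM scale that became 5 genes, and without 5XFAD replicate 3 it became 4. Ifnar2, a chain of the type I receptor, rose from 16.1 ± 0.317 to 26.1 ± 2.73 CPM. Irf7, the amplifier of type I interferon, was at 2.71, 3.71 and 2.08 CPM in wild type and 8.901, 5.16 and 14.3 CPM in 5XFAD (edgeR adjusted p = 0.0197). Its call was lost without wild-type replicate 1 (the female of that group), wild-type replicate 3 or 5XFAD replicate 3. The Irf7 call was also lost with the 11-month libraries alone, with sex as a covariate and on both log2 TPM scales. The interferon genes Ifnb1 and Ifng themselves had too few counts to be tested.

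Promoters of 3 of these genes are shown because their upstream bases hold the letters of the interferon-stimulated response element, to which STAT and IRF factors bind. They were chosen as the called members with the smallest p that held such letters. The letters searched were GAAA, any 2 bases and GAAA again, on both strands, and capitals mark the matches, which overlap in Irgm1 and Oas1a. Sequences are RefSeq's on GRCm38.p6, the 250 bases before the start on the minus strand, from chr11:48871421-48871670, chr5:92348890-92349139 and chr5:120907526-120907775 respectively.
Irgm1: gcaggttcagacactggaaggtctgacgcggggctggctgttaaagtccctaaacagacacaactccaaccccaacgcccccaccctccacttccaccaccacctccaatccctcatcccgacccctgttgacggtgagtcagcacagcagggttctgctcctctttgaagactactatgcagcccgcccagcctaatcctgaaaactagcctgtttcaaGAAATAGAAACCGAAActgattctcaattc
Cxcl10: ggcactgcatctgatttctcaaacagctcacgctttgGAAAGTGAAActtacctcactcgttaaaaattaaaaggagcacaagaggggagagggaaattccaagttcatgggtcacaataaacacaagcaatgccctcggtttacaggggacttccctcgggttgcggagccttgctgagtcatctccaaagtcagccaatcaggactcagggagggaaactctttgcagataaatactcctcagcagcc
Oas1a: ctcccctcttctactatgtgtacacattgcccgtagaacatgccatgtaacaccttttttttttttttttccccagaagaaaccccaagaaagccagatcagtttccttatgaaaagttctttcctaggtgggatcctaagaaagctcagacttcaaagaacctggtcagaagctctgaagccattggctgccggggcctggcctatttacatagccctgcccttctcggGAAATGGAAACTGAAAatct

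The match began 213 bases before the start in Cxcl10, and the pairs of matches began 30 bases before it in Irgm1 and 20 in Oas1a. In windows of 300 bases, from 250 before to 50 after the start, these letters stood in 3.98% of 26994 RefSeq promoters and in 3.66% of those of tested genes. They stood in 52.4% of tested interferon effector promoters (22 of 42), in 25% of those of class I presentation (5 of 20) and in 3.85% of those of plaque-associated microglial genes (1 of 26). Other lists held them as well, with 22.2% of cathepsins (2 of 9), 20% of reactive astrocyte genes (6 of 30) and 19.2% of slower activity-dependent genes (5 of 26). Among all called genes the share was 10.5% of the higher (54 of 514) and 10.4% of the lower (7 of 67). A match is a run of letters and not a measured binding site.

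Complement genes rose in 12 of 25 tested cases, with a median of 0.71. The 3 chains of C1q, which starts the classical pathway and can tag synapses, all rose. C1qa was at 59.6, 91.5 and 77.4 CPM in wild type and 359, 312 and 399 CPM in 5XFAD, rising by 2.23 ± 0.16 (edgeR adjusted p = 1.6e-06), while C1qb rose by 1.91 ± 0.18 and C1qc by 2.07 ± 0.16. C4b, the next component, whose reads may be shared with its copy C4a, was at 40.6, 27.2 and 51.3 CPM in wild type and 473, 412 and 437 CPM in 5XFAD, rising by 3.47 ± 0.26. Every 5XFAD library was far above the wild-type range for C4b, as for C1qa. C3ar1, the receptor for the C3a fragment, rose from 2.45 ± 1.06 to 15.4 ± 3.35 CPM. The inhibitor Serping1, which blocks C1, rose as well, from 2.91 ± 0.821 to 8.55 ± 1.44 CPM.

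Of 9 tested Fc receptors, which bind antibody, 7 rose, with a median of 1.88, among them the inhibitory Fcgr2b at 3.75, 6.66 and 4.41 CPM in wild type and 36.4, 27.6 and 49.5 CPM in 5XFAD and the activating Fcgr3 at 15.1, 25.4 and 23.4 CPM in wild type and 68.1, 68.8 and 98.6 CPM in 5XFAD. Of 32 tested genes of Toll-like receptor signalling, which senses microbial patterns, 9 rose, with a median of 0.51. Tlr2 was at 1.55, 1.29 and 1.08 CPM in wild type and 8.46, 7.02 and 9.84 CPM in 5XFAD, rising by 2.68 ± 0.24 (edgeR adjusted p = 9.39e-06), and Cd14, its co-receptor, at 2.47, 3.39 and 3.25 CPM in wild type and 18.1, 23.99 and 23.6 CPM in 5XFAD, rising by 2.85 ± 0.28. Tlr4 was at 0.319, 1.09 and 0.541 CPM in wild type and 1.38, 1.61 and 1.78 CPM in 5XFAD and did not pass the test, although Cd180, its inhibitory homolog, rose from 2.15 ± 0.824 to 16.9 ± 6.41 CPM. Among scavenger and apoptotic cell receptors 4 of 20 tested rose and 1 fell, with a median of 0.04. Axl, a receptor tyrosine kinase that binds apoptotic cells through bridging proteins, was at 41.4, 65.8 and 46.01 CPM in wild type and 86.8, 72.5 and 100.2 CPM in 5XFAD, rising by 0.76 ± 0.16, a call lost with the 11-month libraries alone. Mertk, of the same kinase family, was at 30.4, 62.96 and 44.2 CPM in wild type and 42.1, 60.7 and 52.5 CPM in 5XFAD, and its groups overlapped. The member that fell was Megf11, at 29.4, 35.05 and 29.5 CPM in wild type and 22.98, 22.3 and 25.3 CPM in 5XFAD (edgeR adjusted p = 0.0329). That call was lost without wild-type replicate 2 or any 5XFAD replicate. It was also lost with the 11-month libraries alone, no filter on low counts, sex as a covariate or a gene length trend removed.

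Of 40 tested mouse counterparts of genes at human risk loci of Alzheimer's disease, 13 rose and none fell, with a median of 0.18. They included Apoe, Trem2, Plcg2, Spi1, Grn and Lilrb4a above, together with Abi3, Clu and Ctsh. Abi3, an actin regulator of microglia, was at 11.7, 19.2 and 11.1 CPM in wild type and 33.2, 29.9 and 36.9 CPM in 5XFAD, rising by 1.25 ± 0.17 (edgeR adjusted p = 0.000368). Clu, clusterin, a lipoprotein of astrocytes, was at 653, 951 and 785 CPM in wild type and 1142, 1382 and 1377 CPM in 5XFAD, rising by 0.71 ± 0.14, a call lost with the 11-month libraries alone. Both genes were separate between the groups. Bin1, a membrane-bending protein of neurons and oligodendrocytes, was at 288, 302 and 211 CPM in wild type and 279, 296 and 304 CPM in 5XFAD, with overlapping groups (adjusted p = 0.662). Of 16 tested proteases known to degrade amyloid-beta 3 rose, with a median of -0.12. These were Mmp12, Ctsb and Plau, the urokinase, which rose from 2.63 ± 1.24 to 17.3 ± 5.39 CPM. The peptidases best known for that role were not called, with Ide, the insulin-degrading enzyme, at 39.2, 61.4 and 52.96 CPM in wild type and 41.3, 40.2 and 43.8 CPM in 5XFAD, and Mme, neprilysin, at 4.78, 4.12 and 26.1 CPM in wild type and 6.15, 6.09 and 3.56 CPM in 5XFAD. For Mme, wild-type replicate 3 alone stood far above the other 5 libraries.

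Of 37 tested genes of reactive astrocytes 19 rose, with a median of 0.98. Gfap, the intermediate filament of reactive astrocytes (GRCm38 chr11:102887336-102900912), was at 139, 92.6 and 105 CPM in wild type and 1235, 1210 and 1344 CPM in 5XFAD. The lowest 5XFAD library was more than 8 times the highest wild-type one, and Gfap rose by 3.49 ± 0.30 (edgeR adjusted p = 1.89e-05). Serpina3n, a secreted inhibitor of serine proteases, was at 10.8, 12.3 and 11.9 CPM in wild type and 159.9, 148 and 149 CPM in 5XFAD, rising by 3.71 ± 0.18 (adjusted p = 9.39e-08). The libraries of each group lay close together for Serpina3n. Vim, vimentin, was at 52.6, 45.7 and 29.5 CPM in wild type and 183, 131 and 173 CPM in 5XFAD, rising by 1.93 ± 0.23. Of 27 tested homeostatic astrocyte genes 2 rose (Aqp4 and S100b), with a median of 0.08. It was 7 genes when wild-type replicate 2 was left out, 1 gene when 5XFAD replicate 2 or 3, or wild-type replicate 1 or 3, was, or on either log2 TPM scale, and 0 with the 11-month libraries alone. Aqp4, the water channel of astrocytic endfeet, was at 46.2, 68.5 and 77.8 CPM in wild type and 133, 96.4 and 151 CPM in 5XFAD, rising by 0.98 ± 0.18, a call lost with the 11-month libraries alone. The glutamate transporter Slc1a2 was at 1591, 2612 and 1837 CPM in wild type and 1845, 2288 and 2296 CPM in 5XFAD, and its groups overlapped.

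Iron handling and oxidant genes rose in 13 of 38 tested cases, with a median of 0.34. The list includes the phagocyte oxidase, which makes superoxide. Cybb, its catalytic subunit, was at 0.518, 0.323 and 0.208 CPM in wild type and 2.75, 3.87 and 3.91 CPM in 5XFAD, rising by 3.30 ± 0.47 (edgeR adjusted p = 0.000606), and Cyba, its membrane partner, rose from 6.58 ± 1.89 to 29.4 ± 4.99 CPM. Hvcn1, the proton channel that balances the charge, rose from 6.33 ± 1.58 to 28.1 ± 6.22 CPM. Hmox1, haem oxygenase, was at 5.02, 5.05 and 5.08 CPM in wild type and 15.7, 13.9 and 16.5 CPM in 5XFAD, rising by 1.61 ± 0.13. The 3 wild-type libraries were almost equal for Hmox1, and all 3 5XFAD libraries were higher. Slc11a1, a metal transporter of phagosomes, rose from 3.67 ± 0.876 to 22.1 ± 4.5 CPM, and Ftl1, the ferritin light chain, from 418 ± 26.4 to 655 ± 79.6 CPM. Fth1, the ferritin heavy chain, was at 2547, 2687 and 1766 CPM in wild type and 2872, 4023 and 3003 CPM in 5XFAD (adjusted p = 0.254), 5XFAD replicate 2 being the highest.

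None was called among 27 tested genes of oligodendrocytes and myelin (median 0.10), 15 of their precursors (0.02), 58 nuclear respiratory genes (0.05), 15 mitochondrially encoded genes (0.17) and 31 proteasome subunits (0.11). None was called among 18 GABA receptor subunits (-0.12) and 48 genes of glutamate receptors and postsynaptic scaffolds (-0.11). None was called either among 25 glucocorticoid-responsive genes (-0.13) and 31 of collagen and matrix (-0.11). The unfolded protein and stress response list had 2 rises among 31 genes (Atf3 and Sdf2l1, median 0.08), or 1 without 5XFAD replicate 3. Atf3, a stress factor of injured neurons and of macrophages, was at 0.677, 0.565 and 1.17 CPM in wild type and 5.54, 4.27 and 6.896 CPM in 5XFAD, rising by 2.79 ± 0.29 (edgeR adjusted p = 3.81e-05). Of 26 tested proliferation genes 1 rose, Mcm3, a subunit of the replicative helicase, from 3.39 ± 0.461 to 6.896 ± 0.744 CPM, and Mki67, a marker of cycling cells, was at 3.07, 0.888 and 1.999 CPM in wild type and 2.79, 4.76 and 2.67 CPM in 5XFAD. Wild-type replicate 1 reached the 5XFAD range for Mki67, and the groups overlapped. Without wild-type replicate 1, 2 of the 26 were called. The counts of this list and of the stress response list are to be read beside the 3.80% of all tested genes called higher. Mbp, myelin basic protein, was at 5296, 3747 and 2895 CPM in wild type and 4181, 5436 and 3993 CPM in 5XFAD, and Snap25, a synaptic fusion protein, at 3175, 2642 and 2002 CPM in wild type and 2820, 2871 and 2529 CPM in 5XFAD. The groups overlapped for both genes, and the wild-type libraries alone spanned a wide range for Mbp. These counts are of genes that missed the threshold, which does not show that their levels were equal.

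Of 32 tested immediate early genes, which neurons switch on within minutes of synaptic activity, 4 fell and none rose. In 27 of them the difference was negative, and the median was -0.56. For 12 of them every 5XFAD library was below every wild-type one, against 8.76% of all tested genes with that order. Nr4a1, an orphan nuclear receptor (GRCm38 chr15:101254269-101274795), was at 79.2, 77.7 and 74.2 CPM in wild type and 37.2, 44.1 and 22.6 CPM in 5XFAD. The wild-type libraries were close together, the 5XFAD ones were spread but all lower, and Nr4a1 fell by 1.15 on the log2 scale (edgeR adjusted p = 0.00993). Egr4, a zinc finger factor, was at 30.7, 22.5 and 32.5 CPM in wild type and 12.02, 17.5 and 9.72 CPM in 5XFAD, a fall of 1.13 (edgeR adjusted p = 0.0395). Fosl2 was at 26.5, 22.9 and 35.5 CPM in wild type and 10.8, 19.2 and 10.5 CPM in 5XFAD (adjusted p = 0.0229), and Klf10 at 26.4, 24.9 and 23.7 CPM in wild type and 16.8, 14.03 and 12.8 CPM in 5XFAD (edgeR adjusted p = 0.00865). In these last 3 genes, as in Nr4a1, no 5XFAD library reached the wild-type range. The calls of Egr4 and Fosl2 were lost without wild-type replicate 3 or 5XFAD replicate 1 or 3, that of Egr4 also without wild-type replicate 1, and that of Klf10 without 5XFAD replicate 3. Egr4 and Fosl2 were not called either with no filter on low counts or with the 11-month libraries alone. Egr4 was not called with sex or a score of the striatal genes as a covariate. The list's count varied with the libraries: 2 genes were called with wild-type replicate 3 left out, 7 with 5XFAD replicate 2 left out, 1 when it was 5XFAD replicate 3 and 2 with the 11-month libraries alone. It varied with the method too, with 2 genes called with no filter on low counts, 7 by limma voom, 8 on either log2 TPM scale and 11 by DESeq2. The classical members missed the threshold, with Fos at 19.4, 14.4 and 23.4 CPM in wild type and 13.1, 10.04 and 6.74 CPM in 5XFAD (adjusted p = 0.175) and Egr1 at 251, 171 and 203 CPM in wild type and 89.01, 153 and 67.02 CPM in 5XFAD (adjusted p = 0.0505). Neither Fos nor Egr1 overlapped between the groups.

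The upstream bases of Egr4 are shown because they hold the core letters of the cyclic AMP response element, through which CREB acts on activity-dependent genes. The letters searched were TGACGTNA on both strands, a core that includes the full palindrome, and capitals mark the match, which began 112 bases before the start. The sequence is RefSeq's on GRCm38.p6, 250 bases on the minus strand at chr6:85513590-85513839.
Egr4: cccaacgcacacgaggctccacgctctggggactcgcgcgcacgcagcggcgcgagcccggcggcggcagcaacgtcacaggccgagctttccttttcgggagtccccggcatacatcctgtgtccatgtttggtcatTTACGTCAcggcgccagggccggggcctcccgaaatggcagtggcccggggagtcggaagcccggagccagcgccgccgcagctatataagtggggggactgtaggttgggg

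In the 300-base windows these letters stood in 24% of promoters of tested immediate early genes (6 of 25) and 26.9% of those of slower activity-dependent genes (7 of 26). Of the members called lower, 1 of 3 immediate early promoters held them and 0 of 4 of the slower genes. They stood in 5.24% of promoters of all tested genes, in 7.46% of the lower genes (5 of 67) and in 2.53% of the higher genes (13 of 514).

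Slower activity-dependent genes respond over hours and include secreted neuropeptides and growth factors. Of 34 tested, 5 fell (Vgf, Nrn1l, Gpr3, Cort and Spred3) and none rose, 30 were negative, and the median was -0.48. Vgf, a precursor of neuropeptides released with neurotrophin signalling, was at 242, 127 and 210.4 CPM in wild type and 87.2, 99.7 and 91.6 CPM in 5XFAD. Its 5XFAD libraries were alike and all below the wild-type ones, and it fell by 1.06 (edgeR adjusted p = 0.0107). That call was lost without 5XFAD replicate 1 or 3 or with the 11-month libraries alone. Bdnf, the neurotrophin itself, was at 19.6, 14.1 and 18.03 CPM in wild type and 8.41, 10.97 and 10.2 CPM in 5XFAD, also without overlap, and did not pass the test (adjusted p = 0.185). Nptx2, a pentraxin that clusters glutamate receptors, was at 90.2, 46.7 and 54.3 CPM in wild type and 32.6, 32.6 and 29.99 CPM in 5XFAD (adjusted p = 0.0849), wild-type replicate 1 being far above the others. The count of 5 was 0 with the 11-month libraries alone or without 5XFAD replicate 1 or 3, 3 by limma voom, 2 without wild-type replicate 1 or 3 and 8 without wild-type replicate 2.

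**Figure D5:**
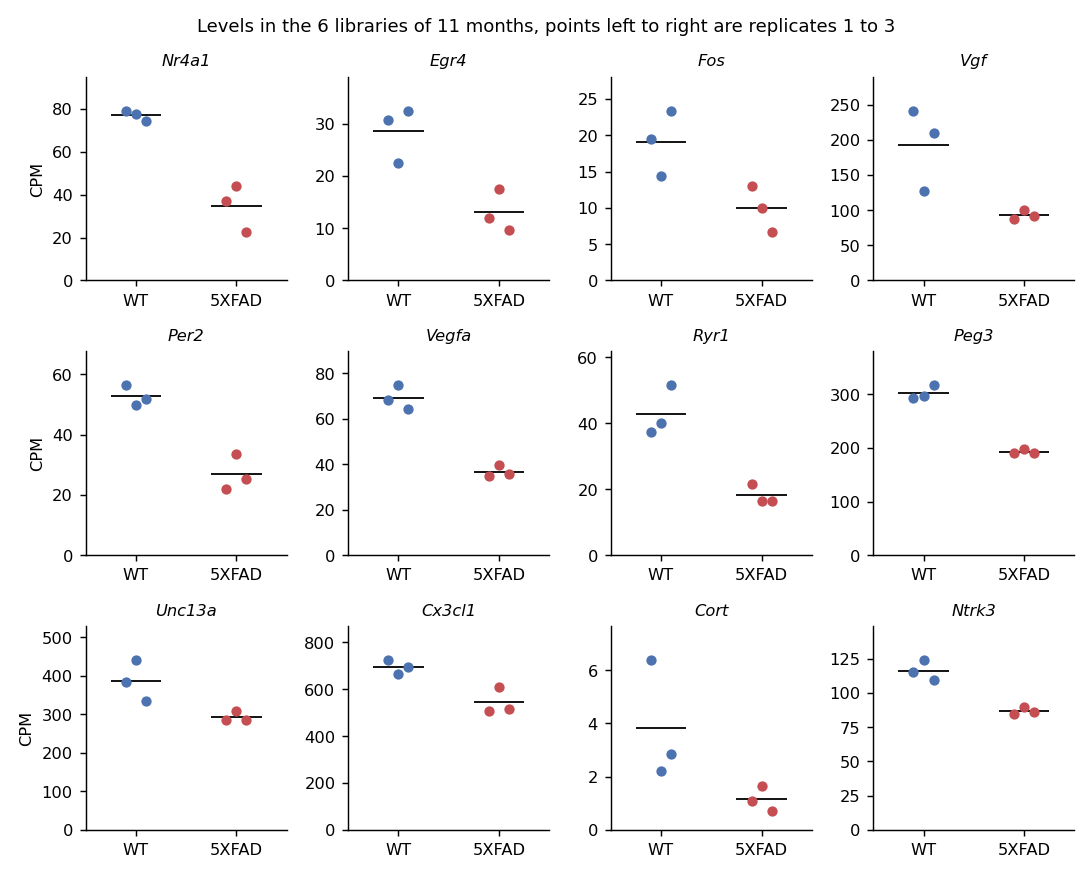
CPM on linear axes from 0 in each of the 3 wild-type and 3 5XFAD libraries for 12 genes that were lower in 5XFAD, with the group mean as a line. The groups do not overlap for any of the 12, and differences are about 2-fold or less for most of them. Fos is shown although it did not pass the test.

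Outside the activity lists, the fall with the smallest p among named genes was that of Vegfa, the vascular endothelial growth factor (GRCm38 chr17:46016993-46032369), at 68.2, 74.7 and 64.2 CPM in wild type and 34.8, 39.7 and 35.6 CPM in 5XFAD. The 5XFAD libraries were close together, all below the wild-type ones, and Vegfa fell by 0.91 (edgeR adjusted p = 8.37e-05), a call made in each of the 17 alternatives run for single genes. The summed TPM of genes of endothelial cells, which respond to VEGF, was lower in 5XFAD as well, although no single gene of that list was called. The values are given with the other cell types, and their part in the Vegfa difference was not tested. Peg3, a paternally expressed zinc finger gene, was at 292, 298 and 317 CPM in wild type and 189.7, 199 and 190.5 CPM in 5XFAD, a fall of 0.65 (edgeR adjusted p = 0.000462). Per2, a repressor of the circadian clock, was at 56.3, 49.9 and 51.7 CPM in wild type and 22.01, 33.6 and 25.2 CPM in 5XFAD, a fall of 0.97 (adjusted p = 0.00141). These falls too were called in each of the 17. Of 24 tested clock genes Per2 was the 1 that fell. Rorb, an activator of the clock and a marker of cortical layer 4, was the 1 that rose, at 21.9, 35.7 and 21.8 CPM in wild type and 44.2, 35.97 and 46.6 CPM in 5XFAD (edgeR adjusted p = 0.0363). Rorb was not called without wild-type replicate 1 or 3 or 5XFAD replicate 1 or 3. Nor was Rorb called with the 11-month libraries alone, with sex as a covariate or on either log2 TPM scale. Arntl, the clock's core activator, was at 23.7, 19.02 and 21.5 CPM in wild type and 17.8, 21.3 and 19.8 CPM in 5XFAD, with overlapping groups, and the hour of tissue collection is not given in the sources used here.

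Calls among genes of excitability and transmission are to be read beside the 4.31% of all tested genes called in either direction. Ryr1, a calcium release channel of the endoplasmic reticulum, was at 37.2, 40.1 and 51.5 CPM in wild type and 21.4, 16.6 and 16.4 CPM in 5XFAD. It fell by 1.24 (edgeR adjusted p = 0.00899), the only call among 29 tested calcium signalling genes, and was not called without 5XFAD replicate 3. Ryr2, the main ryanodine receptor of brain, was at 184, 224 and 120.3 CPM in wild type and 141, 133 and 153 CPM in 5XFAD, wild-type replicate 3 being the lowest of all. Its difference was -0.31 ± 0.16 (adjusted p = 0.398) with all libraries and -0.52 (edgeR adjusted p = 0.0126) without that library. Of 73 tested ion channel genes 2 rose (Hvcn1 and Kcnk6) and 1 fell, with 60 negative and a median of -0.17. The 2 became 1 without wild-type replicate 1 or 5XFAD replicate 2 or 3, with the 11-month libraries alone, with sex as a covariate and on either log2 TPM scale. The call of Kcnk6 itself was lost without wild-type replicate 3 too (edgeR adjusted p = 0.0851). The fall was Cacna1i, a low-threshold calcium channel, at 89.4, 90.99 and 88.4 CPM in wild type and 72.3, 69.3 and 60.8 CPM in 5XFAD (edgeR adjusted p = 0.0399), a call lost when any 1 of the 6 libraries was left out. Cacna1i was not called either with the 11-month libraries alone, no filter on low counts, sex as a covariate, a gene length trend removed or either log2 TPM scale. Unc13a, the vesicle priming factor Munc13-1, was at 383, 441 and 336 CPM in wild type and 285, 308 and 285 CPM in 5XFAD, a fall of 0.40 (edgeR adjusted p = 0.0352) that depended on each library except wild-type replicate 3. The Unc13a call was also lost with the 11-month libraries alone, no filter on low counts, sex as a covariate or a gene length trend removed. It was the only call among 31 tested presynaptic genes, of which 18 were positive and 13 negative, with a median of 0.06. Among 50 tested receptors for transmitters and peptides 3 fell and 2 rose, with a median of -0.22, and the falls were Htr7, Hcrtr1 and Gpr3. The 3 falls became 1 without any single wild-type library or with sex as a covariate, and 0 without 5XFAD replicate 1 or 3 or with the 11-month libraries alone. Cort, cortistatin, a peptide of interneurons, was at 6.38, 2.22 and 2.83 CPM in wild type and 1.09, 1.65 and 0.697 CPM in 5XFAD, a fall of 1.73 (edgeR adjusted p = 0.0499) that was lost without wild-type replicate 1 or 3 or 5XFAD replicate 1 or 3. The Cort call was also lost with the 11-month libraries alone, RLE scaling, no filter on low counts, limma voom or a score of the striatal genes as a covariate. Sst, its relative somatostatin, was at 313, 158 and 304 CPM in wild type and 191, 172 and 196 CPM in 5XFAD, with overlapping groups.

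Further falls with separate groups were modest in size. Slc9a5, a sodium-proton exchanger of neurons, was at 45.7, 41.4 and 46.9 CPM in wild type and 27.4, 26.8 and 25.5 CPM in 5XFAD, a fall of 0.75 (edgeR adjusted p = 0.00437). Atp8b2, a phospholipid flippase, was at 79.5, 79.8 and 96.3 CPM in wild type and 60.1, 53.6 and 55.05 CPM in 5XFAD, a fall of 0.60 (adjusted p = 0.00443). Syne1, a giant protein linking nucleus and cytoskeleton, was at 457, 463 and 470.5 CPM in wild type and 320, 363 and 306 CPM in 5XFAD, a fall of 0.49 (adjusted p = 0.00538). In each of these genes the gap between the groups exceeded the range within either. The Syne1 call was lost without 5XFAD replicate 3 or with the 11-month libraries alone. In all, 88 of 88 lower genes had groups that did not overlap, against 8.76% of all tested genes with 5XFAD lower. Such separation follows largely from picking genes by a small p and adds no support to the calls. Of the 88, 52 changed by less than 1.5-fold.

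Markers of other cells that a dissection could bring along were examined beside these results. The 21 tested endothelial genes were all negative and none was called, with a median of -0.27. Their summed level was 469, 578 and 452 TPM in wild type and 362, 439 and 359 TPM in 5XFAD, so that every 5XFAD library was below every wild-type one, with wild-type replicate 2 the highest. Gene by gene in CPM, 1 of the 21 had that order, against 8.76% of all tested genes. On the log2(TPM + 1) scale the median of all tested genes was -0.12. The 22 striatal genes were negative with all libraries (median -1.01, none called), where wild-type replicate 3 holds the excess described above. Without that library the differences were 0.66 for Drd1, 0.67 for Drd2 and 0.56 for Ppp1r1b. Meningeal genes (13 tested, median -0.12), choroid plexus (8, -0.38), ependyma (8, 0.28), mural cells (13, 0.00) and red blood cells (5, -0.08) had no call. Of 9 tested genes of border macrophages 2 rose (Ccr2 and S100a4). That count was 1 when any library but wild-type replicate 2 was left out, with either other filter or with sex as a covariate, and 0 with the 11-month libraries alone. The defining Mrc1 was at 0.996, 0.929 and 1.58 CPM in wild type and 0.769, 0.726 and 1.59 CPM in 5XFAD, with overlapping groups. For T cells 1 of 9 rose, Cd5, at 0.0398, 0.121 and 0.0833 CPM in wild type and 0.8496, 0.484 and 0.891 CPM in 5XFAD (edgeR adjusted p = 0.0105), a call lost without wild-type replicate 1. The median of the 9 T cell genes was -0.03, with 4 positive and 5 negative, Cd4 (-0.69) and Trbc2 (-0.05) among the negative ones. Cd4 was at 7.53, 3.47 and 42.6 CPM in wild type and 16.4, 13.9 and 2.87 CPM in 5XFAD, wild-type replicate 3 being the highest. Without that library the difference was 1.0 for Cd4 (edgeR adjusted p = 0.67) and -0.58 for Trbc2. For neutrophils, S100a9 had 2, 1 and 3 counts in wild type and 11, 51 and 5 counts in 5XFAD, with 5XFAD replicate 2 far above the rest and no call. The part of these cells in the results above was not tested.

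At 6 months 231 genes were called between the genotypes (1.32%), against 753 at 11 months. Of these, 218 were called at both ages, which is 94.4% of the calls at 6 months and 29% of those at 11 months, and all 218 had the same direction. The difference was larger at 11 months for 206 of the 218. None of the 88 lower genes was called at 6 months. A test of the difference between ages itself called 1 gene (0.00572% of those tested), Serpina3n, whose log2 difference was 1.57 ± 0.15 at 6 months and 3.71 ± 0.18 at 11 months (difference 2.13 ± 0.23, edgeR adjusted p = 0.00456). For no other gene was the genotype difference shown to change with age by that test. Read from Xist and Y-linked genes, all 5XFAD libraries at 6 months were male. Wild-type replicates 1 and 2 at 6 months were female, and 3 and 4 were male. At 11 months 5XFAD replicates 1 and 3 were female. Sex thus shifted with age in 5XFAD, and the comparison of the ages did not tell the 2 apart. Nr4a1 had -0.03 ± 0.21 at 6 months (difference -1.12 ± 0.31, adjusted p = 0.808), and Per2 had 0.05 ± 0.14 (difference -1.02 ± 0.21, adjusted p = 0.453). Cst7 had 6.67 ± 0.32 (difference 1.06 ± 0.63, adjusted p = 1), and Gpnmb had 1.5 ± 0.34 (difference 2.88 ± 0.50, adjusted p = 0.405).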

How the data were processed

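Libraries were made from total RNA of frontal cortex, isolated on columns, per the labels' protocols. Per the submitters' processing notes, STAR 2.7.1 and RSEM were used with GRCm 38, and the authors deposited 1 table per library with RSEM's expected counts and TPM for 55536 genes. Sources used here do not give the annotation or a strand setting; all identifiers matched GENCODE M21, which supplied symbols and coordinates. Groups came from the titles. The human transgenes were not measured.

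Deposited expected counts, of which 7.24% to 7.71% were not whole, were rounded and tested with edgeR 4.0.16 in R 4.3.3. All 13 libraries, fitted as 4 group means with 9 residual degrees of freedom, shared 1 estimate of spread (TMM scaling, robust quasi-likelihood fit). The filter (at least 10 counts at the smallest group size, 15 in total) kept 17483 genes, and p-values were adjusted over them by Benjamini-Hochberg, with a threshold of 0.05. CPM are counts scaled to library size after TMM. Each SE was derived from the test, as the log2 difference without edgeR's prior count, divided by the square root of the F statistic. The printed log2 differences include that prior count. Reads of close paralogs and overlapping genes may have been shared out by RSEM's estimate. Deposited TPM served for levels between genes and for 2 alternatives tested with limma 3.58.1, and DESeq2 1.42.0 was a further alternative.

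Members and gene lists were chosen with earlier results of these data known. Named genes were Thy1 and App as a check of the labels, and the largest and the most significant changes in each direction. The latter were taken only from called genes with a minimum CPM and no overlap between the groups, so their separation was set by that choice. For each list its first members and its called members with the smallest p were named too. Unnamed models, pseudogenes and sex-linked markers were skipped. Clec7a, annotated as a polymorphic pseudogene, and the genes Adora2a, Slc17a7, Cd3e, Cd8a, Slc14a1, Gpr183, Spp1, Lgals3, Dnmt3a, Kmt2a, Ntrk3 and Crlf2 fall outside that rule and were named after their values were seen. A few genes named by the rule are left out here.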

Additional observations from a re-analysis of the deposited data

Results flagged for a closer look

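The genotype difference of Serpina3n, a secreted serine protease inhibitor of reactive astrocytes, differed between 11 and 6 months by a test of the difference itself. Its log2 difference, 5XFAD minus wild type, was 1.57 ± 0.15 at 6 months and 3.71 ± 0.18 at 11 months, a gap of 2.13 ± 0.23 (edgeR interaction test, adjusted p = 0.00456), and every 5XFAD library was above every wild-type one at 11 months. The 5XFAD libraries were all male at 6 months and of both sexes at 11 months, so age and sex were not told apart here.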

How the results depend on the processing

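With 3 libraries per group, the number of libraries limits the precision. The 665 genes called higher became 399 with the 11-month libraries alone and 448 to 762 when a library was left out. They stayed within 1.5 times of 665 in the other alternatives, which were RLE scaling, no filter or a stricter one, sex as a covariate, a gene length trend, limma voom, both TPM scales and DESeq2, and a striatal marker score as a covariate, which was added after seeing the data. The 88 genes called lower moved more. They were 57 with no filter, 25 with the 11-month libraries alone, 135 with the striatal marker score, 338 with log2(TPM + 1), 295 with log2(TPM + 0.1) and 220 with DESeq2. When a library was left out they ranged from 15 to 127, with 15 without 5XFAD replicate 3 and 29 without 5XFAD replicate 1. The interaction with age called 1 gene, against 4 with log2(TPM + 1), 29 with DESeq2 and 1 to 3 when a library was left out, 3 being without 5XFAD replicate 2. The cause of these shifts was not tested, beyond the fewer libraries in the fits that left some out. Of 207 named called genes, 148 were called in each of the 17 alternatives that tested them, 59 lost the call in at least 1 and 0 reversed. A few of the 148 were not tested in every alternative. Of 50 list counts, 24 stayed within 1.5 times in each alternative. No paired analysis was possible because the titles give each library a number of its own, no label says that libraries share a litter, batch or day, and the replicate numbers used here follow accession order.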

Other observations

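Some called genes outside the lists drew attention after their values were seen. Gpr183, a receptor for oxysterols derived from 25-hydroxycholesterol, was at 1.27, 1.21 and 0.999 CPM in wild type and 7.16, 6.73 and 7.87 CPM in 5XFAD, rising by 2.64 ± 0.20 (edgeR adjusted p = 3.36e-06), beside Ch25h, the enzyme that starts the making of such oxysterols. Slc14a1, a urea transporter of astrocytes, was at 9.404, 7.51 and 6.45 CPM in wild type and 35.2, 34.5 and 41.6 CPM in 5XFAD, rising by 2.25 ± 0.16 (edgeR adjusted p = 1.6e-06). Crlf2, a chain of the receptor for thymic stromal lymphopoietin, was at 11.6, 14.01 and 12.6 CPM in wild type and 26.4, 23.6 and 26.4 CPM in 5XFAD, rising by 1.0 ± 0.11. None of the 3 overlapped between the groups. Spp1, osteopontin, was at 6.34, 5.41 and 9.702 CPM in wild type and 58.9, 53.4 and 62.4 CPM in 5XFAD, and Lgals3, galectin-3, at 0.598, 0.444 and 0.4997 CPM in wild type and 7.16, 5.89 and 6.005 CPM in 5XFAD, and both belong to the plaque-associated microglial list.

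Of the lower genes in no list, 3 were named after their values were seen. Dnmt3a, a de novo DNA methyltransferase, was at 92.2, 84.2 and 95.2 CPM in wild type and 66.6, 55.3 and 59.9 CPM in 5XFAD (edgeR adjusted p = 0.0105). Kmt2a, a histone H3 lysine methyltransferase, was at 143, 146 and 165 CPM in wild type and 106, 104 and 111 CPM in 5XFAD (edgeR adjusted p = 0.0138). Ntrk3, the receptor for neurotrophin-3, was at 115, 124 and 109 CPM in wild type and 84.5, 89.3 and 86.2 CPM in 5XFAD (edgeR adjusted p = 0.0162). In each of them all 5XFAD libraries were below all wild-type libraries. Single genes named after their values were seen were not followed through the alternatives. Of the 88 lower calls, 14 were kept without 5XFAD replicate 3. Of the 665 higher genes 395 were in no list, and of the 88 lower genes 71.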
